A study of Mus musculus with 17 samples.

Results

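The report covers 33 mouse genes of the voltage-gated potassium channel group other than the Kcnq genes, named by symbol, and all 33 were found among the 52636 genes of the single-cell table and the 28692 genes of the spot table. By subfamily they are 6 Kv1 genes (Kcna1 to Kcna6), the 3 genes of the Kv1 beta subunits (Kcnab1, Kcnab2 and Kcnab3), 1 Kv2 gene (Kcnb2), 3 Kv3 genes (Kcnc1, Kcnc2 and Kcnc4), 3 Kv4 genes (Kcnd1, Kcnd2 and Kcnd3), 9 genes of electrically silent subunits (Kcnf1, Kcng1 to Kcng4, Kcns1 to Kcns3 and Kcnv1) and 8 genes of the ether-a-go-go group (Kcnh1 to Kcnh8). The study measured the anterior thalamic nuclei in untreated wild-type B6 mice. Neurons were dissected from acute slices, picked by hand and sequenced cell by cell, and 3 brain sections of 10 µm were measured on Visium slides, 2 of them cut through the posterior and 1 through the anterior part of these nuclei. The labels give neither age nor sex, and they do not say whether the 3 sections came from separate animals, so p-values over sections measure only the spread between these sections.

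Voltage-gated potassium channels open when the membrane is depolarized, and the outward current they carry repolarizes the cell. Kv1 channels open near threshold and sit largely on axons, where cytoplasmic beta subunits bind to them. Kv3 channels open at high voltage and close fast, which allows narrow spikes and high firing rates. Kv4 channels carry the transient A-type current of the soma and dendrites and assemble with the Kcnip and Dpp proteins. Silent subunits form no channel alone and alter the gating of Kv2 channels when they join them. Channels of the ether-a-go-go group include the erg channels of Kcnh2, Kcnh6 and Kcnh7, whose slow currents shape the resting potential and the adaptation of firing. The anterior thalamic nuclei link hippocampus, mammillary bodies and cingulate cortex, and their cells fire either in bursts or in single spikes.

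Of 904 cells kept, 877 were neurons, and 860 of these fell into 4 clusters made without any potassium channel gene. The clusters are named here by leading genes. Cluster 1 (413 cells) was led by Acta2, Npsr1, Grp and Myl9, cluster 2 (227 cells) by Foxp1, Tox and Tnnt1, cluster 3 (178 cells) by Calb2, Gad2, Penk and Fbln1, and cluster 4 (42 cells) by C1ql2 and Sncg. All 8 markers of thalamic glutamatergic neurons had counts in each of the 4 clusters, with summed levels of 2705 to 5753 CPM (counts relative to the total of a sum) over animals and clusters. All 8 also had counts in the 27 oligodendrocyte-like cells, at 2142 to 2475 CPM, so they do not set the 4 clusters apart from these. The oligodendrocyte markers did, at 50101 to 58668 CPM in those 27 cells and at most 304 in the 4 clusters. Counts per cell differed between animals, with medians of 49798, 8845 and 50474 for animals 1, 2 and 3, which gave 103, 328 and 473 cells. The 3 sections held 2493 to 2794 spots and 13788407 to 26032042 counts, and 2393 spot barcodes occurred on more than 1 section, as the slides share a barcode set. Of 7827 spots, 660 formed the group with the highest level of the thalamic markers (Shox2, Tcf7l2, Gbx2 and Slc17a6 led it) and are called the thalamic region.

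In the neurons, the Kv1, Kv3 and Kv4 subfamilies each had at least 1 member with counts in most cells, while most silent subunits had few counts. Kcnc2, a Kv3 subunit, stood at 409, 426 and 378 CPM over all neurons of animals 1, 2 and 3. Kcna2, a Kv1 subunit of axons, stood at 361, 356 and 291 CPM, and Kcnd2, the Kv4.2 subunit, at 251, 355 and 294 CPM. No animal stood apart by more than 1.5-fold in these genes. With each neuron thinned to 5000 counts, which left out 0, 59 and 2 neurons of the 3 animals, Kcnc2 had a count in 65.3%, 74.8% and 71.1% of neurons. Kcna2 had one in 51.5%, 70.5% and 59.5%, Kcnd2 in 48.5%, 70.9% and 58.9%, and the beta subunit gene Kcnab2 in 43.6%, 57.4% and 50.5%. These 4 members reached a mean share of 50% in thinned neurons, and 15 of 33 reached 10%. Without thinning the counts were 6 and 17 members. A share depends on transcript length and capture as well as on abundance, so it does not rank one gene against another. The median number of members with a count per thinned neuron was 6 in cluster 1 and 5 in each of clusters 2, 3 and 4, against 2 in the 27 oligodendrocyte-like cells.

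Too few counts in neurons left 12 members untested, and 21 were tested. The untested ones were Kcna3, Kcng1, Kcng3, Kcng4, Kcnh1, Kcnh3, Kcnh4, Kcnh5, Kcnh6, Kcns1, Kcns3 and Kcnv1. Kcnh5 had a count in 32 of 877 neurons, Kcnh3 in 19 and Kcnh1 in 15, and the other untested members had one in 1 to 14. The 109 counts of Kcnh1 lay mainly in cluster 3, which held 99. Among the silent subunits, Kcnf1 was counted in 339 neurons and Kcns2 in 147, and Kcng2 in 21. A filter on low counts keeps a gene that is high in 1 cluster alone, so the tested members are not a neutral sample of the 33.

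Clusters 2 and 4 each had 7 of the 21 tested members called, and in cluster 4 all 7 were lower than in the mean of the other clusters: the Kv3 genes Kcnc2 and Kcnc4, the Kv4 genes Kcnd2 and Kcnd3, the beta subunit gene Kcnab1, the silent subunit gene Kcnf1 and the erg gene Kcnh7. The share of members lower was 33.3%, against 7.2% of all 11737 genes tested (5.67% of all genes were higher, and 1 member was higher at an unadjusted p under 0.05). The test was edgeR's quasi-likelihood test on counts summed per animal and cluster, with the animal as a block, and a call means a Benjamini-Hochberg adjusted p under 0.05 over all genes. The median log2 fold change of the tested members was -0.44 and that of all genes -0.25.

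Kcnh7 had 0, 0 and 15.3 CPM in cluster 4 of animals 1, 2 and 3, against 101, 70.4 and 62.0 in cluster 1, 124, 103 and 123 in cluster 2, and 89.8, 37.4 and 65.1 in cluster 3. Every cluster 4 value was below every value of the other clusters, with a log2 fold change of -3.49 ± 0.69 (SE) and an adjusted p of 0.00415. Kcnf1, a modifier of Kv2 channels, had 0, 31.0 and 4.9 CPM in cluster 4, and its lowest value elsewhere was 43.8. Its log2 fold change was -3.71 ± 0.68 with an adjusted p of 0.00234. Kcnab1 had 11.4, 37.2 and 12.9 CPM in cluster 4 and between 63.1 and 150 elsewhere, again with no overlap (log2 fold change -2.62 ± 0.43, adjusted p 0.0011). Kcnc4, the Kv3.4 subunit gene, had no count in the 42 cells of cluster 4. By counting error only, that allows a share of up to 7.14% of cells with a count. Cluster 1 was low as well, with a count in 9 of 413 cells (8.08, 1.18 and 0.51 CPM). The 0 of Kcnc4 therefore does not set cluster 4 apart from cluster 1.

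The Kv4 genes were lower by less. Kcnd2 had 168, 155 and 88.2 CPM in cluster 4, 266, 415 and 336 in cluster 1, 316, 429 and 360 in cluster 2, and 193, 209 and 273 in cluster 3. The groups did not overlap, and the log2 fold change was -1.20 ± 0.23 (adjusted p 0.00352). Kcnd3, the Kv4.3 subunit gene, had 72.5, 55.8 and 56.0 CPM in cluster 4 and between 80.3 and 145 elsewhere (log2 fold change -0.83 ± 0.26, adjusted p 0.0481), and this call held in only 3 of 12 other settings. Kcnc2 had 301, 105 and 172 CPM in cluster 4, where animal 1 overlapped cluster 3 (300, 248 and 239), while clusters 1 (445, 541 and 505) and 2 (488, 406 and 418) were higher in all animals. Its log2 fold change was -1.02 ± 0.22 with an adjusted p of 0.00739. Cluster 4 held 6, 9 and 27 cells of the 3 animals, the fewest of the 4. Without animal 1 there were 13 member calls in cluster 4, without animal 2 there were 3 and without animal 3 there was 1. Calls over all genes in this contrast were also most numerous without animal 1.

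The remaining members did not pass in cluster 4. Kcnab2 had 439, 186 and 407 CPM there against 257, 276 and 306 in cluster 1 (log2 fold change against the mean of the others 0.74 ± 0.25, adjusted p 0.0654), which did not pass. Kcna2 had 651, 204 and 189 CPM in cluster 4, a spread between animals wider than the difference to any other cluster. Kcna1, which encodes the Kv1.1 subunit of axons, had 54.0, 204 and 175 CPM there and likewise overlapped clusters 1 and 2. In cluster 4 the summed level of the 6 general neuronal markers was 8001 to 11941 CPM, and 4859 to 8130 in the others. The astrocyte list stood at 777 to 878 CPM there and at most 188 elsewhere, with Aqp4, Gja1, Slc1a3 and Gfap at 0 in cluster 4. The endothelium list stood at 43.4 to 198 CPM there and at most 24.9 in clusters 1 to 3, with Flt1 highest and Cdh5 at 0 in cluster 4. The list of cortical excitatory neurons stood at 127 to 186 CPM and at most 53.4 elsewhere. Their part in the result was not tested, apart from a fit without the cells that carried 3 or more markers of another type, in which 6 of the 7 genes were still called and Kcnd3 had an adjusted p of 0.0577.

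**Figure D1:**
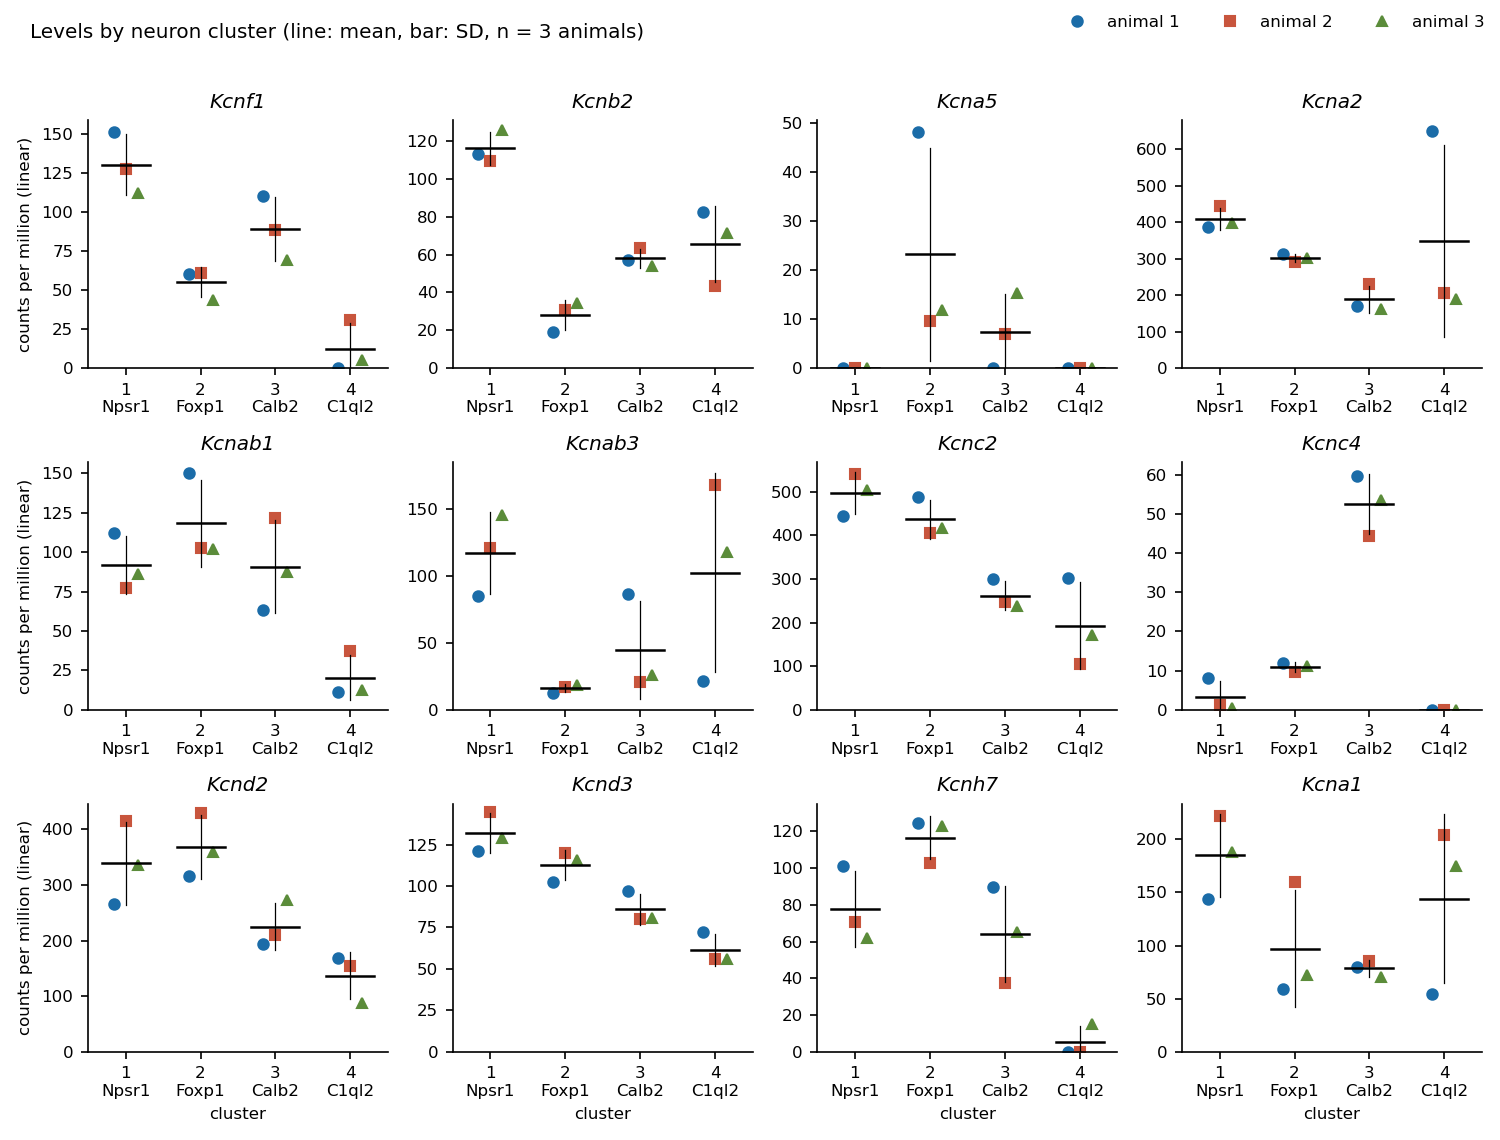
CPM (linear axes from 0) of 12 members in neuron clusters 1 to 4, with 1 point per animal, the mean as a line and the SD as a bar (n = 3 animals). Kcnf1, Kcnh7 and Kcnab1 sit lowest in cluster 4, while Kcna2, Kcnab3 and Kcna1 spread widely between animals there. Kcnc4 is at 0 in cluster 4 and low in cluster 1 too.

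For 4 of the members that were lower together in cluster 4, the 250 bases upstream of the start site are shown, to let the sequences be compared. They come from RefSeq, build GRCm38.p6, read 5′ to 3′ on the strand of the gene, in lower case with each GC box (GGGCGG, which on the other strand reads as the letters CCGCCC) in capitals.
Kcnf1: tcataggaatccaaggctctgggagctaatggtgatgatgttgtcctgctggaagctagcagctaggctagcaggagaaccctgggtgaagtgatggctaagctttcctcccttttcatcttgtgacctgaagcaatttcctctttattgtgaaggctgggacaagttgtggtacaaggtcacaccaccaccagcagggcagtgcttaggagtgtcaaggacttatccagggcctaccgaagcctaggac
Kcnh7: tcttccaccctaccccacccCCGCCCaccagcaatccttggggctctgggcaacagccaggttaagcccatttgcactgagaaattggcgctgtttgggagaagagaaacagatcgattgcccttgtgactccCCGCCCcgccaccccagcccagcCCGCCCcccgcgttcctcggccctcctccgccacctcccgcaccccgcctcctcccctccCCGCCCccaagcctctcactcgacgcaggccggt
Kcnd2: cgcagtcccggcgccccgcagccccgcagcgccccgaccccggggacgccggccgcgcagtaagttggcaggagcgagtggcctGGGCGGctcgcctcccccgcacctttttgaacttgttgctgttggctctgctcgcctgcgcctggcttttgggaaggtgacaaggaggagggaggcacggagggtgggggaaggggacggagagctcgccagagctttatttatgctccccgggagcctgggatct
Kcnc4: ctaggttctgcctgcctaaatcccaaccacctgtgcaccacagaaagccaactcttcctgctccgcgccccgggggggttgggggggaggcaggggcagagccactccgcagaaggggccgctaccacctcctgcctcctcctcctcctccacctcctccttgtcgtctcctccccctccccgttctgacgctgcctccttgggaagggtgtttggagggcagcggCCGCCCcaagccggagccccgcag
The Kcnf1 stretch (chr12:17176889-17177138, minus strand) had 51.2% G and C, 1 CpG and 0 GC boxes, while the Kcnh7 stretch (chr2:63184288-63184537, minus strand) had 67.6%, 16 and 4. The Kcnd2 stretch (chr6:21215096-21215345, plus strand) had 68.8% G and C, 22 CpG and 1 GC box, and the Kcnc4 stretch (chr3:107458899-107459148, minus strand) had 68%, 12 and 1. Over 32851 promoters the median was 52.4% G and C (quartiles 45.2% and 61.2%) and 6 CpG (quartiles 2 and 16). The Kcnf1 stretch thus lay within the quartiles for G and C and below the lower one for CpG, and the other 3 lay above the upper quartile for G and C. These 4 do not stand for all members lower in cluster 4. Among those not shown, the promoters of Kcnab1 had 45.2%, 50% and 35.6% G and C, all below the median. Those of Kcnc2 had 52.4% to 58.8%, within the quartiles, and that of Kcnd3 had 62.8%.

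RefSeq promoters were given for 24 of the 33 members, 32 in all. A GC box was found in 19 of these 32 (59.4%), belonging to 18 members, against 32.7% of all promoters of the same length. CCAAT, which on the other strand reads as ATTGG, was found in 7 (21.9%, against 33.8%), and the E-box CACGTG in 3 (9.38%, against 6.02%). TATAAA, which on the other strand reads as TTTATA, was found in 0 against 12.4%, and the CRE letters TGACGTCA in 0 against 1.55%. Several promoters of one gene overlap, as in Kcnc2, and these shares are given as descriptions.

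In pairs of clusters, 19 of the 20 member calls involved cluster 4, whose sums these pairs share. Cluster 2 against cluster 4 gave 9 calls (42.9% of members, against 17.5% of all genes), 8 of them higher in cluster 2 and 1, Kcnab3, lower. Cluster 1 against cluster 4 gave 6, all higher in cluster 1 (7.08% of all genes were called), and cluster 3 against cluster 4 gave 4, all higher in cluster 3 (4.45% of all genes). Kcnf1, Kcnh7 and Kcnab1 were called in all 3 of these pairs. Among clusters 1, 2 and 3 the only call was Kcnb2 between clusters 1 and 2 (1.54% of all genes were called). No member was called by edgeR between clusters 1 and 3 (1.41% of all genes) or between clusters 2 and 3 (3.92%). In these pairs 10 and 5 members had an unadjusted p under 0.05, and DESeq2 called 4 and 2. The share of all genes under those looser rules was not counted, so these counts show nothing particular to the members. The split depended on the animals. Without animal 1, 24 calls fell among clusters 1 to 3 and 36 in pairs with cluster 4, while without animal 2 there were 0 and 7, and without animal 3, 0 and 4. Calls over all genes were not counted for the pairs in these fits, so the shift is not shown to be one of the members.

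Kcnb2, the Kv2.2 subunit gene and the only Kv2 gene described here, was higher in cluster 1 than in cluster 2. It had 114, 109 and 126 CPM in cluster 1, 19.3, 30.5 and 34.2 in cluster 2, 57.0, 63.7 and 53.8 in cluster 3, and 82.4, 43.4 and 71.3 in cluster 4. Clusters 1 and 2 were apart in all animals, with a log2 fold change of 1.96 ± 0.40 and an adjusted p of 0.0240. Against the mean of the others Kcnb2 fell in cluster 2 (log2 fold change -1.36 ± 0.35, adjusted p 0.0223), and in cluster 1 the adjusted p was 0.0521.

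Kcnf1, whose product joins Kv2 subunits, had 152, 128 and 113 CPM in cluster 1, 111, 88.6 and 69.4 in cluster 3, and 60.2, 61.0 and 43.8 in cluster 2. All cluster 1 values lay above all values of the other clusters, though close to cluster 3. Against the mean of the others it was the only member called in cluster 1 (4.76% of members, against 0.818% of all genes higher), with a log2 fold change of 2.01 ± 0.44 and an adjusted p of 0.0362. That contrast averages logarithms and so gives the near-0 level of cluster 4 much weight. Against cluster 2 alone the log2 fold change was 1.16 ± 0.56 (adjusted p 0.446), and against cluster 3 it was 0.59 ± 0.54 (adjusted p 0.828). In thinned cells of cluster 1, Kcnb2 had a count in 29.4%, 29.8% and 28.6% of the cells with a Kcnf1 count and in 21.6%, 35.1% and 32.8% of the cells without one, so the share among Kcnf1 cells was higher in animal 1 and lower in the other 2. Smooth muscle and pericyte markers stood at 1.01 to 298 CPM in cluster 1 over animals, and without the cells that carried markers of another type Kcnf1 was still called. Without animal 1 there were 8 member calls in cluster 1, and without animal 2 or animal 3 there was none. Calls over all genes were most numerous without animal 1 here too.

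In cluster 2, 5 of 21 members were higher (23.8%, against 6.67% of all genes) and 2 were lower (9.52%, against 4.6%). Kcnh7 was at 124, 103 and 123 CPM, above all values of the other clusters (log2 fold change 1.92 ± 0.47, adjusted p 0.0173). Kcnab1 was at 150, 103 and 102 CPM and overlapped clusters 1 and 3 (1.32 ± 0.32, adjusted p 0.0156). Kcnd2 (0.86 ± 0.20, adjusted p 0.0120) and Kcnc2 (0.68 ± 0.19, adjusted p 0.0375) overlapped cluster 1 and not cluster 3, and the Kcnc2 call held in 6 of 12 other settings. These 4 genes are among the 7 that were lower in cluster 4, whose sums enter both contrasts, and none of them was called between cluster 2 and cluster 1 or 3. Kcna5, a Kv1 subunit gene, was counted in 17 of 227 cells of cluster 2 (48.1, 9.53 and 11.8 CPM) and in 13 of 178 cells of cluster 3 (0, 6.92 and 15.3 CPM), and in 0 of 413 cells of cluster 1, which allows a share of up to 0.726%. The 5 highest cells held 79.2% of its counts in cluster 2, and its adjusted p was 0.0137 by edgeR and 0.154 by DESeq2. Kcna5 passed the filter on low counts only with the sums of cluster 2, where it is highest. Its place among the 5 higher members is therefore no support.

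Kcnab3, the gene of the Kv beta3 subunit, was lower in cluster 2, at 12.8, 17.2 and 18.6 CPM. It stood at 84.9, 121 and 146 in cluster 1, 86.4, 20.8 and 26.0 in cluster 3, and 21.3, 167 and 118 in cluster 4. Cluster 2 was below each of the others in all animals, with cluster 3 close to it in animals 2 and 3 (log2 fold change -2.19 ± 0.63, adjusted p 0.0376). When the counts were divided at random into 2 sets, with clusters made from one and the test run on the other, the log2 fold change was only -0.14 (adjusted p 0.928). Reads of Kcnab3 and of its antisense neighbour Kcnab3os, and of Kcnd3 and Kcnd3os, cannot be told apart here, since the strand setting of the counting is not given in the sources used here. Without animal 1 there were 11 member calls in cluster 2, without animal 2 there was 0 and without animal 3 there was 1. Calls over all genes in cluster 2 were likewise most numerous without animal 1.

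In cluster 3, Kcnc4 was the only member called (4.76% of members, against 1.14% of all genes higher and 0.298% lower). It had 59.6, 44.3 and 53.5 CPM and a count in 57 of 178 cells, against 12, 9.53 and 11.3 CPM in cluster 2, 8.08, 1.18 and 0.51 in cluster 1 and 0 in cluster 4. All animals of cluster 3 lay above all others (adjusted p 0.00481). Cluster 1 minus cluster 3 gave a log2 fold change of -4.53 ± 1.04 with an adjusted p of 0.0595, and cluster 2 minus cluster 3 gave -2.12 ± 0.91 with an adjusted p of 0.263. Markers of GABA neurons summed to 204 to 840 CPM in cluster 3 and to at most 43.4 in the other clusters, and all 8 had counts there. Without cells that carried 3 or more markers of another type, Kcnc4 kept an adjusted p of 0.0076. Without animal 1 there were 10 member calls in cluster 3, and without animal 2 or animal 3 there was none. Calls over all genes in cluster 3 were likewise most numerous without animal 1.

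**Figure D2:**
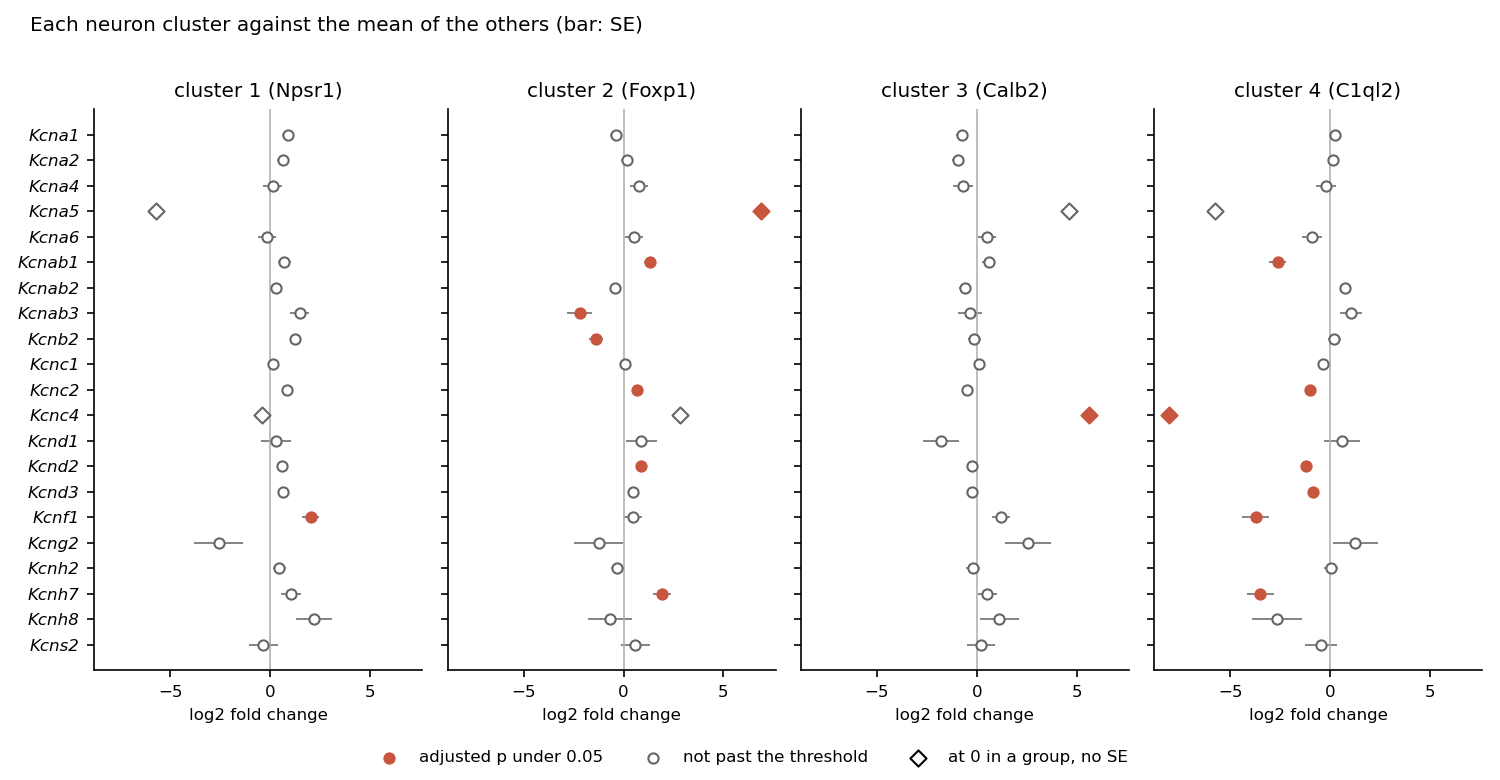
Log2 fold change of the 21 tested members in each neuron cluster against the mean of the other clusters, with SE bars (3 animals). Filled symbols passed an adjusted p of 0.05, and diamonds mark genes at 0 in a cluster, whose fitted size is no measure. All filled symbols of cluster 4 lie below 0.

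The other 11 tested members passed in no contrast between clusters. They were Kcna1, Kcna2, Kcna4, Kcna6, Kcnab2, Kcnc1, Kcnd1, Kcng2, Kcnh2, Kcnh8 and Kcns2. Kcnc1, the Kv3.1 subunit gene, showed the flattest pattern of the well counted genes, at 201, 256 and 247 CPM in cluster 1, 160, 267 and 224 in cluster 2, 218, 284 and 216 in cluster 3, and 117, 310 and 161 in cluster 4. Its log2 fold changes lay between -0.37 and 0.14. Kcnh2, the erg1 gene, had 34.3 to 81.2 CPM over all clusters and animals.

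Of the 26 partner genes, 20 were tested between neuron clusters. Cluster 4 had 7 lower (35% of those tested, against 7.2% of all genes). Ank3, whose product anchors channels at the axon initial segment, was lower by 1.34 ± 0.23 on the log2 scale in cluster 4 (146 against 388 CPM, adjusted p 0.00162), and Lgi1, whose secreted product associates with Kv1 channels, fell by 2.47 ± 0.43 (adjusted p 0.00161). The Kv4 partner Dpp6 fell by 0.74 ± 0.19 there (adjusted p 0.0225). Kcnip3, another Kv4 partner, was at 0 in cluster 4 against a mean of 13.1 CPM in the others (adjusted p 0.0138). A 0 in 42 cells allows a share of up to 7.14% of cells, by counting error only. Kcnip3 had a count in 39 of 413, 34 of 227 and 31 of 178 cells of clusters 1, 2 and 3. Dpp6 was higher in cluster 1 (0.92 ± 0.17, adjusted p 0.0124) and was the only partner called there (5%, against 0.818% of all genes higher). Ank3, Cntnap2 and Lgi1 were higher in cluster 2 (15%, against 6.67% of all genes). Lgi1 had 98.7, 85.8 and 72.2 CPM there and 55.9, 99.4 and 96.5 in cluster 1, and Ank3 overlapped cluster 1 as well. The low cluster 4 sums of Ank3 and Lgi1 enter this contrast. No partner was called between clusters 1 and 2, where 1.54% of all genes were called. Amigo2, a Kv2 partner, was higher in cluster 3 (37.9 against 5.62 CPM, adjusted p 0.0277). Kcnip1, a Kv4 partner, was called higher there too (47.0 against 0.528 CPM, adjusted p 0.00344). It had 78.6, 33.2 and 29.1 CPM in cluster 3 and at most 1.91 in clusters 1, 2 and 4. Kcnip1 thus passed the filter on low counts through cluster 3 alone, so its calls for that cluster are no support. These 2 calls are 10% of partners, against 1.14% of all genes higher. In pairs of clusters, 1 partner was called between clusters 1 and 3 (Dpp6) and 1 between clusters 2 and 3 (Kcnip1). Each is 5% of partners, against 1.41% and 3.92% of all genes. In pairs with cluster 4 there were 4 for cluster 1 (20%, against 7.08% of all genes). There were 6 for cluster 2 (30%, against 17.5%) and 5 for cluster 3 (25%, against 4.45%). Lgi1, Ank3 and Kcnip3 were called in all 3 of the pairs with cluster 4.

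The thalamic spots split into 5 subregions of at least 41 spots, again made without channel genes. Subregion 1 (185 spots) was led by Itga4, Nexn, the member Kcnf1, Npsr1 and Car4. Subregion 2 (176 spots, 130 of them in section 2) was led by Ctxn3, Penk and Foxp2, and subregion 3 (146 spots) by Calca, Tnnt1 and Foxp1. Subregion 4 (104 spots in sections 5 and 6) was led by Oxt, Avp and Necab1, and subregion 5 (41 spots) by C1ql2 and Chrm1. Leading genes were ranked in the same spots after the split, so the place of Kcnf1 among them and its test below are not separate results. A spot holds several cells, and fewer cells of a type and less RNA per cell cannot be told apart. The 3 sections were the replicates, and 16 of the 33 members passed the filter among 6872 genes.

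In subregion 1, Kcnf1 was at 135, 144 and 102 CPM in sections 2, 5 and 6. It had 44.5, 11.7 and 15.6 in subregion 2, 85.0, 30.5 and 39.4 in subregion 3, 18.7 and 29.0 in the 2 sections of subregion 4, and 22.0, 0 and 34.8 in subregion 5. All values of subregion 1 lay above all others, with a log2 fold change against the mean of the others of 2.00 ± 0.23 and an adjusted p of 1.9e-10. Kcnc2 had 413, 373 and 369 CPM in subregion 1 and at most 333 in any other, again without overlap (0.85 ± 0.11, adjusted p 1.8e-08). Kcnd3 was at 125, 120 and 91.8 CPM and was higher by 0.84 ± 0.19 on the log2 scale (adjusted p 7.9e-04), overlapping subregions 3 and 5. In all 6 of 16 members were higher in subregion 1 (37.5%), where 5.57% of all genes were higher and 3.84% lower. The other 3, Kcna2, Kcnab2 and Kcnab3, were lost without subregion 4, with adjusted p of 0.209, 0.39 and 0.442. Kcnab2 exceeded the mean of the others in only 1 of 3 sections on the linear scale. Kcnf1 was thus higher both in cluster 1 of the neurons and in subregion 1 of the spots, which share the leading genes Npsr1 and Car4. It is 100% of the member calls in cluster 1 and 16.7% of the 6 in subregion 1. The share of all genes called in both was not counted, so this shows nothing particular to the members.

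In subregion 2, Kcnc4 was higher and Kcna2 and Kcnab2 were lower (2.74% of all genes were higher and 1.5% lower). Kcnc4 had 42.2, 117 and 72.9 CPM there, 13.5, 20.0 and 13.9 in subregion 1, 51.0, 30.5 and 32 in subregion 3, and 74.6 and 35.4 in the 2 sections of subregion 4. Subregion 2 was above subregion 1 in each section and overlapped subregions 3 and 4 (1.51 ± 0.35, adjusted p 0.0025). In subregion 3, Kcnd2 (235, 183 and 175 CPM, 0.63 ± 0.16, adjusted p 0.00484) and Kcna2 (286, 351 and 323 CPM, 0.55 ± 0.12, adjusted p 0.00151) were higher and Kcnab2 was lower, against 3.84% and 2.84% of all genes. Kcnd2 was also higher in cluster 2, which shares the leading genes Foxp1 and Tnnt1 with subregion 3. It is 14.3% of the 7 members called in cluster 2 and 33.3% of the 3 called in subregion 3. Here too the share of all genes called in both was not counted. In subregion 4, 4 members were lower (25%, where 2.6% of all genes were lower and 3.19% higher): Kcnc2 at 140 and 135 CPM (-0.97 ± 0.17, adjusted p 3.0e-05), Kcna2, Kcnab2 and Kcnab3, which had 1 count in that subregion. Hypothalamic markers stood at 149 to 2345 CPM in subregion 4 and at most 258 in the others, and oligodendrocyte markers at 2496 to 3180 CPM against 4019 to 10284. The part of these cells in the lower levels was not tested.

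Subregion 5 had 3 members higher and 4 lower, against 7.09% and 5.7% of all genes. Kcnab2 stood at 307, 490 and 633 CPM, with at most 317 in any other subregion, and in each section it was the highest of the subregions (1.65 ± 0.14, adjusted p 9.6e-16). Kcnab3 was at 36.6, 79.1 and 58.1 CPM against 33.8, 52.1 and 26.0 in subregion 1, again highest within each section (2.38 ± 0.47, adjusted p 1.3e-04). Kcnh2 was higher by 0.81 ± 0.25, in 2 of 3 sections (adjusted p 0.0169). Lower were Kcnab1 at 65.9, 15.8 and 29.0 CPM (-1.31 ± 0.33, adjusted p 0.00291), Kcna6 (-0.95 ± 0.30, adjusted p 0.0229), Kcnd2 (-0.67 ± 0.23, adjusted p 0.0429) and Kcnc4, with 3 counts in 41 spots (adjusted p 0.00879). Kcnab1, Kcnc4 and Kcnd2 were lower both here and in neuron cluster 4, which shares the leading genes C1ql2 and Rspo3 with subregion 5. These 3 are 42.9% of the 7 members called in cluster 4 and 42.9% of the 7 called in subregion 5. How many of all genes were called in both was not counted, so this overlap shows nothing particular to the members. Kcnf1 (adjusted p 0.0768) and Kcnh7 (adjusted p 0.204) did not pass in subregion 5, and Kcnc2 was at 249, 221 and 308 CPM there, overlapping subregion 3. Cortical excitatory markers summed to 585 to 668 CPM in subregion 5 and to at most 203 elsewhere, and general neuronal markers to 7757 to 8950 against 3947 to 5166. Their part in the result was not tested.

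**Figure D3:**
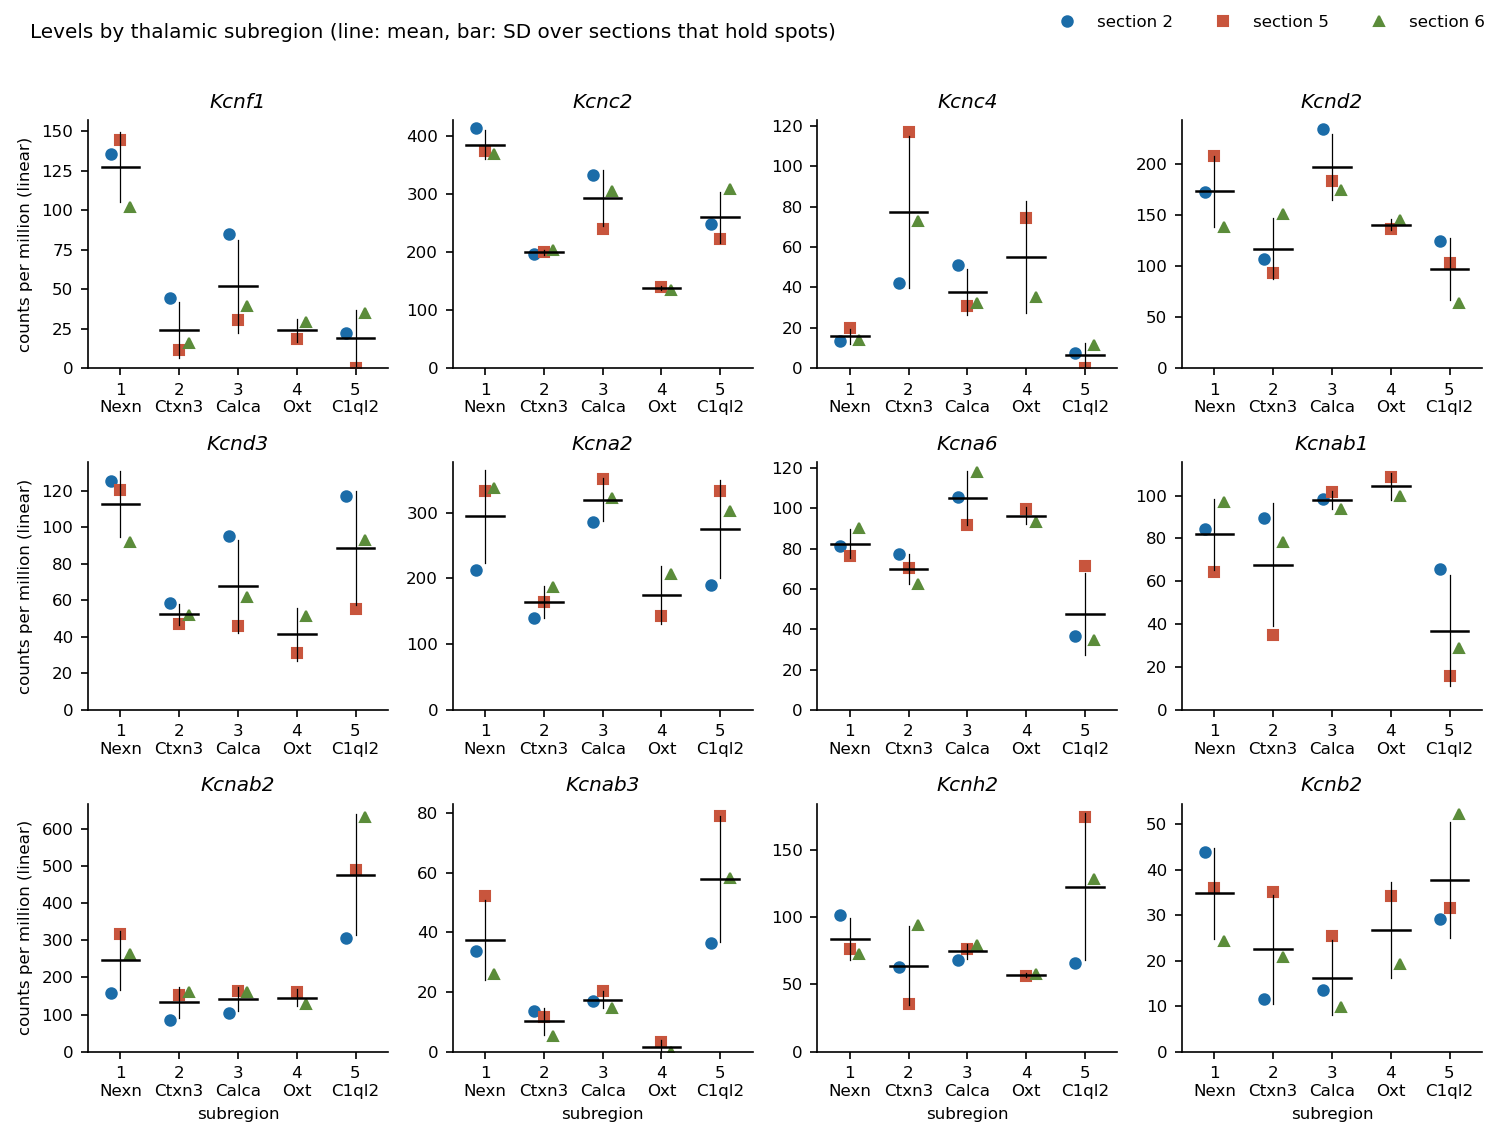
CPM (linear axes from 0) of 12 members in thalamic subregions 1 to 5, with 1 point per section, the mean as a line and the SD as a bar. Kcnf1 and Kcnc2 sit highest in subregion 1, and Kcnab2 and Kcnab3 sit highest in subregion 5.

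Of 23 member calls over the 5 subregions, 6 held in every other setting tried: Kcnf1 and Kcnc2 in subregion 1, Kcnc4 in subregion 2, Kcnc2 in subregion 4, and Kcnab2 and Kcnab3 in subregion 5. Without section 5, 11 of the 23 were lost, and 11 without section 6. Subregion 1 then had 2 or 3 member calls, subregion 4 had 2 in either case, and subregion 5 had 3 or 4. Without section 2, subregions 2 and 3 had 1 member call each in place of 3. With any section left out, calls over all genes were fewer as well in subregions 1, 2, 3 and 5.

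Of the partner genes, 19 were tested between subregions. Called in either direction were 10.5%, 21.1%, 10.5%, 10.5% and 21.1% of them in subregions 1 to 5. Of all genes, 5.57%, 2.74%, 3.84%, 3.19% and 7.09% were higher there, and 3.84%, 1.5%, 2.84%, 2.6% and 5.7% were lower. In subregion 1, Ank3 was higher (0.46 ± 0.13, adjusted p 0.0138) and Amigo2 lower (-1.67 ± 0.51, adjusted p 0.0233). In subregion 2, 2 were higher, Amigo2 (2.03 ± 0.35, adjusted p 3.1e-05) and Kcnip1 (1.71 ± 0.37, adjusted p 0.00111), and 2 lower, Cntnap2 (-0.80 ± 0.18, adjusted p 0.00222) and Adam23 (-0.67 ± 0.21, adjusted p 0.0429). In subregion 3 the Kv4 partners Kcnip4 (0.50 ± 0.13, adjusted p 0.0116) and Kcnip3 (0.72 ± 0.23, adjusted p 0.0444) were higher and none was lower. In subregion 4, Kcnip1 (1.80 ± 0.41, adjusted p 0.00158) and Amigo2 (1.47 ± 0.41, adjusted p 0.0163) were higher and none was lower. In subregion 5, 1 was higher, Cntnap2 (0.93 ± 0.18, adjusted p 9.5e-05), and 3 lower, Dlg4 (-0.87 ± 0.23, adjusted p 0.00399), Kcnip1 (-2.64 ± 0.75, adjusted p 0.00976) and Ank3 (-0.62 ± 0.19, adjusted p 0.0218).

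Against the other spot groups, 13 of 29 tested members were higher in the thalamic region (44.8%, against 16.9% of all 12966 genes) and 6 were lower (20.7%, against 14.1%). Kcnc2 had 251, 233 and 275 CPM in sections 2, 5 and 6. The next group, led by Nkx2-1 and Lhx8, had 177, 141 and 107, so the thalamic region was highest of 11 groups in all sections (log2 fold change against the mean of the others 2.14 ± 0.08, adjusted p 5.9e-31). Kcnd3 was also highest by mean in the thalamic region, at 77.3, 60.7 and 72.1 CPM, but overlapped a cortical group led by Rprm at 67.7, 61.9 and 51.4 (1.12 ± 0.12, adjusted p 3.7e-12). Kcnd2 had 136, 159 and 143 CPM (0.99 ± 0.08, adjusted p 4.7e-17) and was second to the group with striatal genes at 227, 206 and 185. Kcna4, the Kv1.4 subunit gene, had 37.4, 33.4 and 41.3 CPM (1.57 ± 0.15, adjusted p 2.2e-13), again second to the striatal group.

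Higher too were the Kv1 genes Kcna2 (0.57 ± 0.07) and Kcna6 (0.42 ± 0.10), the beta subunit gene Kcnab2 (0.50 ± 0.09), Kcnb2 (0.55 ± 0.17) and the silent subunit genes Kcns2 (1.75 ± 0.35) and Kcnf1 (0.64 ± 0.13), with adjusted p of at most 0.00973. Kcnb2 lost its call without section 5 (adjusted p 0.209). Kcnf1 ranked at place 5 of 11, and the cortical group led by Rprm had 127 ± 32.6 CPM against 55.4 ± 6.28 in the thalamic region (SD, n = 3). Kcnh2 (0.87 ± 0.10, adjusted p 1.9e-10) stood at 75.6 ± 5.35 CPM, under 179 ± 17.6 in a group led by Pvalb and Six3. Kcng4 had 5.91, 15.2 and 23.3 CPM (1.08 ± 0.29, adjusted p 0.00248). Of its 67 counts, 24 lay in 8 spots led by Tac2, Gng8 and Pou4f1, and without section 6 the adjusted p was 0.0789. Kcnab1 passed at 0.29 ± 0.12 (adjusted p 0.0475) on the log scale, while its linear level of 83.3 CPM was below the mean of the other groups, 97.8, because the striatal group stood at 465. That call held in 3 of 8 other settings.

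The members lower in the thalamic region were mostly ones with few counts in the single neurons as well. Kcnh1, the ether-a-go-go gene, had 3.94, 2.02 and 1.16 CPM against 72.9, 77.9 and 94.8 in a cortical group led by Lamp5, and ranked lowest of 11 groups (-3.76 ± 0.28, adjusted p 7.8e-18). Kcnh3 likewise ranked lowest, at 2.46, 1.01 and 4.65 CPM against 97.4, 119 and 92.0 (-3.28 ± 0.35, adjusted p 7.6e-12). No thalamic value came near the cortical ones. The silent subunit genes Kcnv1 (-2.57 ± 0.52), Kcng1 (-2.03 ± 0.36) and Kcns1 (-1.16 ± 0.28) were lower, with adjusted p of 5.8e-05, 5.9e-06 and 7.4e-04, though Kcnv1 was lost without section 2. Kcnab3 was lower by 0.63 ± 0.17 on the log2 scale (adjusted p 0.00208), at 18.7, 29.3 and 18.6 CPM, and lost the call without section 6 (adjusted p 0.143). In the neurons, Kcnh1, Kcnh3, Kcnv1, Kcng1 and Kcns1 had a count in 6 to 19 of 877 cells, while Kcnab3 had one in 325.

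**Figure D4:**
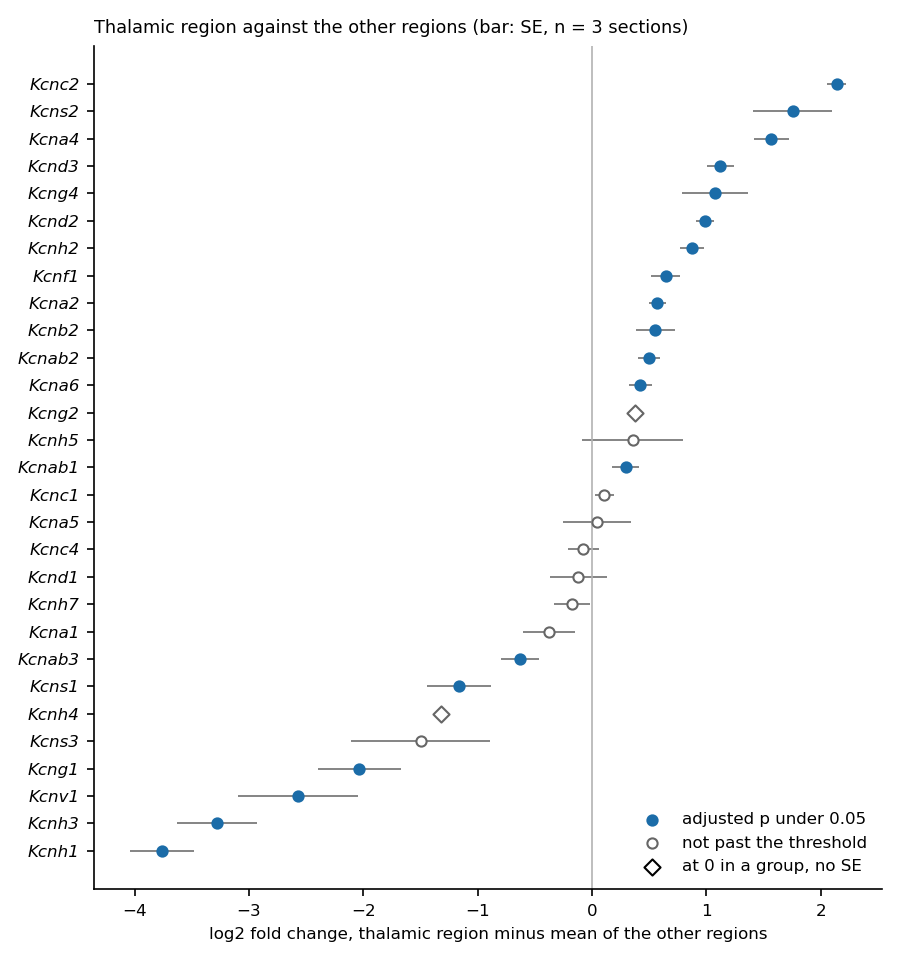
Log2 fold change of the 29 tested members in the thalamic region against the mean of the 10 other spot groups, with SE bars (3 sections). Filled symbols passed an adjusted p of 0.05, with Kcnc2 highest at 2.14 and Kcnh1 lowest at -3.76, and diamonds mark genes at 0 in a group.

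In this contrast 10 tested members did not pass: Kcna1, Kcna5, Kcnc1, Kcnc4, Kcnd1, Kcng2, Kcnh4, Kcnh5, Kcnh7 and Kcns3. Kcng2 and Kcnh4 were at 0 in the group led by Pvalb and Six3, so their fitted values are no measure. Kcna3, Kcng3, Kcnh6 and Kcnh8 were not tested, with 1, 0, 2 and 10 counts in the 660 thalamic spots. Kcnh7 had 22.2, 41.5 and 34.9 CPM in the thalamic region and 150, 177 and 179 in the cortical group led by Lamp5. Of the partner genes 6 of 22 were higher in the thalamic region and 3 of 22 lower, against 16.9% and 14.1% of all genes. The share of partners lower was thus close to that of all genes. Kcnip4 (1.93 ± 0.09, adjusted p 2.2e-28) and Amigo2 (2.31 ± 0.17, adjusted p 1.6e-18) rose. Dlg1, whose product is a scaffold that binds Kv1 channels, fell by 1.09 ± 0.09 (adjusted p 2.7e-15), and Kcnip2 fell by 1.84 ± 0.17 (adjusted p 9.9e-14).

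Between the anterior section and both posterior sections, which allow no test with 1 anterior section, 0 of 17 members with at least 50 counts in the thalamic region differed by 2-fold in the same direction, against 0.885% of 9487 genes. At 1.5-fold there were 2, both higher in the anterior section, where 1.6% of all genes were higher and 3.3% lower. Kcnb2 had 33.4 CPM (95% exact Poisson interval 23.0 to 46.9, counting error only) against 17.7 and 21.5, and Kcnab3 had 29.3 CPM (interval 19.7 to 42.1) against 18.7 and 18.6. The interval of Kcnb2 in the anterior section overlapped those of posterior sections 2 (12.4 to 24.5) and 6 (15.1 to 29.6). That of Kcnab3 likewise overlapped both (13.2 to 25.7 and 12.7 to 26.3).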

How the data were processed

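Single cells of 3 mice and spots of 3 Visium sections were measured. The deposited tables hold raw counts per gene and well, and per gene and spot. The deposited well and spot tables give the animal and the section (other unit), per the file headers. The submitters' processing notes name Seurat, Space Ranger and the builds NCBIM37 and mm10 without roles. The aligner, the counting, its strand and whether molecules or reads were counted are not given in the sources used here. No label ties the 14 labelled samples of cells to the 14 plates, so the wells' animal number served as the replicate. Of 1216 wells with a cell, 912 had at least 1000 genes, and 904 were kept, leaving out wells whose source was recorded under another animal. No doublet caller was run, since cells were picked by hand.

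Cells and spots were clustered (Leiden, resolution 0.5, 2000 variable genes, 30 components, 15 neighbours, scaling to 10000) without any gene whose symbol starts with Kcn and without the 26 partner genes (scanpy 1.11.5 with igraph 0.11.9 under Python 3.11.15; scipy 1.17.1 gave the intervals). Sums of counts over the cells of a cluster in 1 animal, or the spots of a region in 1 section (at least 5), were tested with edgeR 4.0.16 (quasi-likelihood, TMM, filterByExpr, R 4.3.3, limma 3.58.1) with Benjamini-Hochberg adjustment over all genes, threshold 0.05, and the animal or section as a block. DESeq2 1.42.0 was an alternative. A fold change compares a group with the mean of the logarithms of the others. The scripts were tested on simulated data, with a spread between replicates that was set and not taken from these data. Of 2-fold changes, 36% were recovered between neuron clusters, 32% between subregions and 35% between regions. Of 4-fold changes, 100%, 90% and 100% were recovered. False calls made up 1.45%, 1.61% and 5.59% of the calls. A member that was not called may therefore still differ. The thalamic region of each section gave 988364 to 2030285 counts, which limits genes of a few CPM.

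The block follows from the design, since all clusters of 1 animal, and all regions of 1 section, come from the same source. Deviations from the group means correlated with a median of 0.08 within an animal and -0.0507 between animals, 0.1 and -0.0467 for subregions, and 0.0796 and -0.0504 for regions.

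The members and lists were chosen with earlier results of these data known. All 33 members were to be accounted for, in full where a test was passed, and partners by counts with up to 4 of the smallest adjusted p per comparison. Other settings were the scaling, tool, filter, block, gene minimum, resolution, marker-free cells and each animal or section left out. Promoter letters came from RefSeq. Protein sequences were not used here, so the planned comparison of them was not made.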

Additional observations from a re-analysis of the deposited data

Results flagged for a closer look

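Member counts also appeared in control wells, which none of the comparisons used. The 56 wells labelled qRNA held 144 member counts of 16 members, or 2.57 per well, among 4367024 gene counts, and the 56 wells labelled ERCC held 22, or 0.393 per well. The 16 blank wells held 1, or 0.0625 per well. Relative to all gene counts the order was the opposite, with 33 member CPM in the qRNA wells, 277 in the ERCC wells and 3096 in the blank wells, the last from that 1 count among 323. Of the 128 control wells, 44 had at least 1000 genes with a count. What those wells contained beyond their label was not tested.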

How the results depend on the processing

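None of the 58 member calls named for a cluster, subregion or the thalamic region reversed under the settings in which it had a value. In every such setting 20 of the 58 were kept, which are 14 of 19 in the thalamic region, 6 of 23 in the subregions and 0 of 16 in the neuron clusters. In the neuron clusters all 16 were kept without animal 1, 2 without animal 2, and 2 of the 15 that could be tested without animal 3. Other settings changed fewer calls there. DESeq2 kept 15 of 16, and the fit without the replicate block kept 15 of 16.

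With an animal left out, the members called in clusters 1, 2, 3 and 4 ranged from 0 to 8, 0 to 11, 0 to 10 and 1 to 13, and those in pairs of clusters from 4 to 60. All genes called ranged from 24 to 785, 175 to 3642, 36 to 1026 and 463 to 3406. The highest values came without animal 1, which had the fewest cells. With a section left out, the members called in subregions 1 to 5 ranged from 2 to 5, 1 to 3, 1 to 3, 2 to 5 and 3 to 6, and all genes called from 403 to 438, 110 to 237, 216 to 265, 164 to 427 and 529 to 640. For the thalamic region the members called ranged from 16 to 18 and the genes from 3010 to 3147. The cause of these shifts was not tested, beyond the smaller number of replicates.

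With DESeq2, all genes called in clusters 1 to 4 were 392, 2095, 425 and 2468 in place of 157, 1323, 169 and 1510, and in subregions 1 to 5 they were 295, 131, 211, 171 and 525 in place of 647, 291, 459, 398 and 879. Members called by DESeq2 were 3 in cluster 1, 2 in cluster 3, 3 in subregion 1 and 3 in subregion 5. Without a filter, clusters 1 and 3 had 5 and 4 members and 358 and 395 genes. Without the replicate block, cluster 1 had 2 members called, subregion 3 had 1 member and 185 genes, and subregion 2 had 178 genes. Cluster 1 had 2 members with cells of at least 2000 genes, 2 with clusters from all genes, 2 at resolution 0.8 and 3 with the counts divided. Cluster 3 had 2 with clusters from all genes, 2 at resolution 0.8 and 2 with the counts divided. With regions from all genes, subregion 2 had 6 members and subregion 4 had 2 members and 263 genes. Without subregion 4, an alternative chosen after seeing the data, subregion 1 had 3 members and 389 genes and subregion 2 had 5 members and 496 genes. At 1.5-fold, 2 members differed between the anterior section and both posterior ones, against 0 at 2-fold, while 152 of 9487 genes were higher and 313 lower at 1.5-fold. The cause was not tested.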
